A study of Mus musculus with 3 samples.

Results

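The 9 genes described here (Otx2, Six3, Hesx1, Rax, En1, Pax2, Gbx2, Egr2 and Irx3) encode transcription factors that mark regions of the neural plate from front to back. They were taken by symbol from the 31054 features measured, and all 9 were found. Their transcripts were counted in 3 wild-type mouse embryos (C57BL/6 x 129 SvEv), harvested whole at embryonic day 8 with the extraembryonic tissue removed and dissociated to single cells; 1 droplet library was made per embryo. The labels place the embryos between 0 and 2 somites, the paired mesoderm blocks that form in sequence, and a protocol field states 0 to 1. There was no treatment or mutant, so the comparisons are between classes of cells within the same embryos. Levels were read in neural cells, defined as cells that passed quality control and held at least 1 UMI of Sox2 (a unique molecular identifier marks 1 captured transcript) and none of T, Foxa2, Meox1 and Tbx6. These numbered 1068, 1145 and 1272 in embryos 1, 2 and 3, or 3485 of 21595 cells in all.

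At this stage the neural plate is an open sheet that is being divided into forebrain, midbrain, hindbrain and spinal cord. Otx2 is required for the forebrain and midbrain and Gbx2 for the anterior hindbrain, and their mutual repression sets the boundary between midbrain and hindbrain. Six3, Hesx1 and Rax act in the anterior forebrain and eye field, En1 and Pax2 at the midbrain and its border with the hindbrain, Egr2 (also called Krox20) in rhombomeres of the hindbrain, and Irx3, a member of the Iroquois family, over a broad region behind the anterior forebrain. Libraries differed in depth, with a median of 26853, 14941 and 16486 UMIs per neural cell. The libraries shared 18 to 22 barcode sequences pairwise.

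The class label was checked against 3 neural genes that its rule did not use. In neural cells Pou3f1 stood at 98.2 ± 8.58 CPM (UMIs of the gene scaled to 1000000 UMIs of the class; mean ± SD, n = 3 embryos), Sox3 between 44.6 and 73.1 CPM and Sox1 at 13.7 ± 2.72 CPM. In visceral endoderm, an extraembryonic layer that lines the yolk sac, the same genes stood at 1.74 ± 0.343, 1.41 ± 0.895 and 0.202 ± 0.191 CPM. This is a distant class, so these values do not set neural cells apart from surface ectoderm or other near classes. Caudal genes were also abundant in the class (Cdx1, 131 ± 16.6 CPM), so the class was not only anterior. Cells of the posterior plate and progenitors with Sox2 and T whose T was not captured cannot be told apart here. Of the neural cells, 38.95%, 35.4% and 37.6% also met the positive markers of another lineage, mostly those of surface ectoderm (354, 309 and 366 cells). A stricter class with Sox2 at 2 or more UMIs and no such markers kept 550, 534 and 553 cells. Stray transcripts were present too, since the 3 visceral endoderm genes Ttr, Apoa1 and Apoa2 summed to between 72.2 and 315 CPM in neural cells against 9752 to 12097 CPM in visceral endoderm; their part in the levels below was not tested. None of the 3 was at 0 in neural cells of any embryo. The surface ectoderm genes Wnt6, Dlx5 and Krt8 summed to between 232 and 301 CPM in neural cells against 1033 to 1165 CPM in surface ectoderm. This sum is not particular to surface ectoderm. It was higher in axial mesendoderm (1500 to 1687 CPM) and definitive endoderm (1339 to 1794 CPM), and lower in the remaining classes. Whether these transcripts were stray or came from the cells themselves was not tested.

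Promoter windows of 4 members are shown because their transcripts were found together (Otx2, Six3 and Hesx1) or apart (Gbx2). RefSeq windows on GRCm38.p6 run from 250 bases before to 50 bases after an annotated start. Windows of 8 of the 9 members were searched, 17 in all, and Rax was left out of the search. Capitals mark the homeodomain core TAATTA and the bicoid-type motif TAATCC (or its reverse complement GGATTA), searched on both strands, and the motifs did not overlap.
Otx2, chr14:48665060-48665359 (- strand): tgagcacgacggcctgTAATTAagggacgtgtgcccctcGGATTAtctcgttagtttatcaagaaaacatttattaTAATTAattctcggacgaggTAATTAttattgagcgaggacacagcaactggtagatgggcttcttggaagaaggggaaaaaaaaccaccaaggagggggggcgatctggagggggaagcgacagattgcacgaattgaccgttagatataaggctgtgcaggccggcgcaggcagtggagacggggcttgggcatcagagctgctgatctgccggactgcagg
Six3, chr17:85620584-85620883 (+ strand): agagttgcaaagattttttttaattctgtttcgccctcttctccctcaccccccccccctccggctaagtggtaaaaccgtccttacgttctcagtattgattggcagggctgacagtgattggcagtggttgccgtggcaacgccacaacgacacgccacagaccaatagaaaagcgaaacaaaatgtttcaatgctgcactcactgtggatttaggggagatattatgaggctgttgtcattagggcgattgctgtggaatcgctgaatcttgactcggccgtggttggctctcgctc
Hesx1, chr14:27000112-27000411 (+ strand): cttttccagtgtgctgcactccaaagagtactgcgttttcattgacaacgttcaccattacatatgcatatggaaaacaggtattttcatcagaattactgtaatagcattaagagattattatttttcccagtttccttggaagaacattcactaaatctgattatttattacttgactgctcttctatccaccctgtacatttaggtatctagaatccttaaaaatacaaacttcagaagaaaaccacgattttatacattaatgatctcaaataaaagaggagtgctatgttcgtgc
Gbx2, chr1:89931127-89931426 (- strand): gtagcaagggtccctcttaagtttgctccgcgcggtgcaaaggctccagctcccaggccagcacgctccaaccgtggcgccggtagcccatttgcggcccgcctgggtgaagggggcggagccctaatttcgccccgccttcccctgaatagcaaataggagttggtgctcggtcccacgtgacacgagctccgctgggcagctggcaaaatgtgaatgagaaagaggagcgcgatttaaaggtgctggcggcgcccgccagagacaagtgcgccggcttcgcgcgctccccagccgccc
Of the 4 annotated Otx2 starts, the one shown was picked because it held more than 1 TAATTA. It had 3 copies of TAATTA and 1 of TAATCC. One other Otx2 window held a single TAATTA, and neither motif was in the remaining 15 member windows, including those of Six3, Hesx1 and Gbx2 printed here. Over all 32851 promoter windows, 5.29% held at least 1 TAATTA and 7.06% at least 1 TAATCC. These shares are no background for a window picked by its number of copies. These are matches of letters and not sites shown to be bound.

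The anterior genes were found in a large share of neural cells, and the rarer ones differed most between embryos. A share counts the cells in which 1 or more UMIs of a gene were captured, so it rises with depth. It is also given after each cell was thinned to 5000 UMIs, with shallower cells left out. The class rules were then applied again to the thinned counts, which gave 868, 950 and 1056 neural cells, so depth and class membership changed together.

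Otx2 (ENSMUSG00000021848, chr14:48657677-48673819, minus strand) was found in 56.4%, 41.7% and 52.7% of neural cells in embryos 1, 2 and 3. The exact 95% intervals were 53.3 to 59.4%, 38.9 to 44.7% and 49.9 to 55.4%, which cover counting error only, as do all intervals here. Its level was 104, 75.2 and 87.8 CPM, lowest in embryo 2. After thinning, Otx2 was found in 29.5 ± 3.20% of cells. As background, in erythroid cells, where this neural gene should be absent, 8 of 545 cells in embryo 2 and 2 of 131 in embryo 3 held an Otx2 UMI (1.47% and 1.53%). Erythroid cells met their marker rule in embryos 2 and 3 and in no cell of embryo 1. The rule also required that they hold no Sox2 UMI. Droplets with stray neural RNA were thus partly left out, and this background can be too low. Their median depth was 15239 and 17107 UMIs, near that of neural cells in the same embryos.

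Six3 (ENSMUSG00000038805, chr17:85613608-85629302, plus strand), a homeobox gene that holds back Wnt signalling in the anterior plate, was found in 27.5%, 27.2% and 25.4% of neural cells. The shares were close, but the level was 38.0, 66.6 and 40.8 CPM, so embryo 2 stood above the other 2. Hesx1 (ENSMUSG00000040726, chr14:26994416-27002329, plus strand), a homeobox repressor needed for forebrain and pituitary, was found in 29.4%, 26.7% and 24.1% of neural cells, at 34.3, 43.0 and 26.4 CPM. Embryo 2 was again the highest by level. After thinning, the shares were 14.9 ± 2.43% for Six3 and 13.3 ± 1.56% for Hesx1, against at most 1.10% for either in erythroid cells of embryo 2 at full depth.

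Rax (ENSMUSG00000024518, chr18:65928277-65939787, minus strand), which is required for the eye field, was rare. It was found in 24, 59 and 23 neural cells, or 2.25%, 5.15% and 1.81%. Embryo 2 held 91 Rax UMIs and the other embryos 29 and 28. En1 (ENSMUSG00000058665, chr1:120602418-120607992, plus strand), a homeobox gene of the midbrain and isthmus, had the same order, with 28, 77 and 28 cells (2.62%, 6.72% and 2.20%). Their levels were 0.881, 4.46 and 1.08 CPM for Rax and 0.972, 6.61 and 1.47 CPM for En1. The intervals of embryo 2 for Rax (3.95 to 6.60%) and En1 (5.34 to 8.33%) lay above those of both other embryos, although its library was the shallowest. The somite number of each embryo is not given in the sources used here, and whether it moved with these shares was not tested.

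Pax2 (ENSMUSG00000004231, chr19:44756045-44837871, plus strand), a paired-box gene of the midbrain and its hindbrain border, was found in 26.8%, 20.3% and 20.9% of neural cells. Its level was even, at 16.2, 17.8 and 14.2 CPM, and after thinning its share was 7.75 ± 0.445%. Gbx2 (ENSMUSG00000034486, chr1:89927956-89931179, minus strand) was found in 49.8%, 36.6% and 39.6% of neural cells. It stood at 44.3, 39.2 and 43.5 CPM, the narrowest relative spread of the 9 genes, and at 18.1 ± 1.53% of thinned cells. Egr2 (ENSMUSG00000037868, chr10:67535475-67542188, plus strand) was at the edge of detection, with 30, 20 and 10 cells and 31, 22 and 10 UMIs. Irx3 (ENSMUSG00000031734, chr8:91798525-91802067, minus strand) was found in 79.9%, 60.9% and 74.0% of neural cells, at 122, 98.3 and 124 CPM. Otx2, Six3, Rax, Pax2, Gbx2 and Irx3 overlap antisense genes (Otx2os1, Six3os1, Raxos1 and Irx3os among them). Use of the strand in counting is not given in the sources used here, and any part of these genes in the counts was not tested. Otx2, Six3 and Pax2 also overlap genes on their own strand (Gm49154, Gm27610 and Mir6405 among them). Gene coordinates are from GENCODE M21 on GRCm38.

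**Figure D1:**
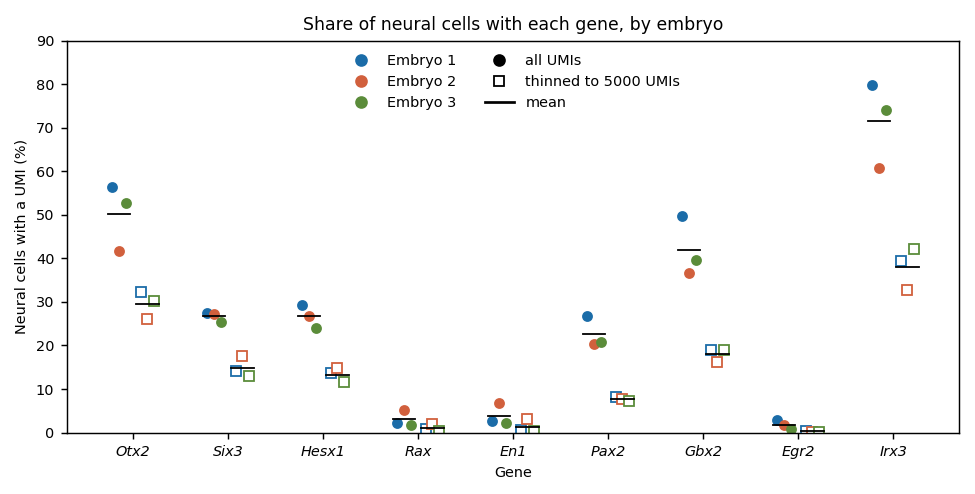
Percent of neural cells with at least 1 UMI of each gene (y axis, %) for the 9 genes (x axis). Filled circles are the 3 embryos with all UMIs, open squares the same embryos after thinning to 5000 UMIs, and black lines the means; embryo 2 stands above the other 2 for Rax (5.15%) and En1 (6.72%) and below them for Otx2 (41.7%) and Irx3 (60.9%).

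With all UMIs, most neural cells held 2 or more of the 9 genes. The mean number of members found per cell was 2.77, 2.27 and 2.41 in embryos 1, 2 and 3. No member was found in 4.21%, 12.1% and 6.92% of neural cells, and no cell held 8 or 9. These numbers depend on depth. After thinning the mean was 1.28, 1.20 and 1.24 members per cell. No member was then found in 27.0%, 30.7% and 26.4% of cells, and only 1 in 35.9%, 35.1% and 38.1%. Of the 127 combinations seen, 50 occurred in all 3 embryos. The most frequent were Gbx2 with Irx3 (12.6 ± 3.53% of neural cells), Gbx2 alone (11.3 ± 1.82%) and Irx3 alone (8.92 ± 2.38%). The anterior combination of Otx2, Six3, Hesx1 and Irx3 made up 6.24 ± 0.765%, or 74, 62 and 81 cells.

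Pairs of members were then compared with the number of cells expected to hold both if the 2 genes were found independently within each quartile of depth of each embryo. The ratio has an upper limit that falls as the commoner gene of a pair is found in more cells. Ratios of Otx2 and Irx3 therefore cannot be ranked against those between rarer genes. The anterior genes were found together. Six3 and Rax were found together in 104 cells where 33.0 were expected, a ratio of 3.24 ± 0.218 (mean ± SD, n = 3 embryos), and Hesx1 and Rax at ratios of 2.85 to 3.54 across embryos. Six3 and Hesx1 shared 657 cells against 269 expected (ratio 2.44 ± 0.102). With Otx2 the ratio was 1.70 ± 0.123 for Six3, 1.74 ± 0.145 for Hesx1 and 1.72 ± 0.0409 for Rax. Otx2 shared 845 cells with Six3, 871 with Hesx1 and 99 with Rax, where 499.7, 504 and 57.2 were expected. Of the Rax cells, 24 of 24, 52 of 59 and 23 of 23 held Otx2 in embryos 1, 2 and 3.

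En1 and Pax2, both genes of the midbrain and isthmus, were found together in 85 cells against 32.0 expected (ratio 2.54 ± 0.538, range 1.92 to 2.86). En1 was also found with Otx2 more often than expected (1.60 ± 0.109), but with Six3 it was not (0.968 ± 0.502, range 0.645 to 1.55). Rax and En1, which mark separate regions, shared 3 cells where 5.98 were expected, too few to read. Pax2 was found with Otx2 at 1.39 ± 0.0905 and with Hesx1 at 1.40 ± 0.0899. In thinned cells the ratio of Hesx1 and Pax2 was 1.09 ± 0.315 (0.892 to 1.45) and that of Otx2 and En1 1.35 ± 0.590 (0.825 to 1.99). Both had values on either side of 1. The thinned ratio was 1.59 ± 0.293 for Otx2 and Pax2 and 3.43 ± 0.991 for En1 and Pax2.

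Gbx2 was found apart from the anterior genes. Otx2 and Gbx2 shared 466 cells against 775 expected, a ratio of 0.592 ± 0.0528, with 0.532 to 0.633 across embryos. The ratio of Gbx2 was 0.518 ± 0.0984 with Six3, 0.492 ± 0.0355 with Hesx1, 0.484 ± 0.0169 with Rax, 0.640 ± 0.0380 with En1 and 0.765 ± 0.0392 with Pax2. With thinned cells Otx2 and Gbx2 shared 58 cells against 154 expected (0.366 ± 0.0816), and Six3 and Hesx1 199 against 57.2 (3.52 ± 0.331), so both ratios lay farther from 1, with the neural class set again on the thinned counts. For Rax and Gbx2 the thinned ratio was 1.06, over few cells. In the stricter neural class the ratio of Otx2 and Gbx2 was 0.560 ± 0.0651. Without the 6% of cells with the highest doublet scores it was 0.592 ± 0.0537. The doublet caller had not worked, so the part of mixed droplets in this ratio was not tested. Irx3 was near 1 with most members (1.14 ± 0.0136 with Otx2 and 0.905 ± 0.0324 with Gbx2). It reached 1.25 ± 0.135 with En1 and 1.21 ± 0.0627 with Pax2. Its upper limit is low because most neural cells held Irx3, so ratios near 1 do not show a weak link. Gbx2 and Egr2 shared 33 cells against 27.4 expected (1.34 ± 0.319), and this ratio fell to 0.441 in thinned cells, where few Egr2 cells are left.

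**Figure D2:**
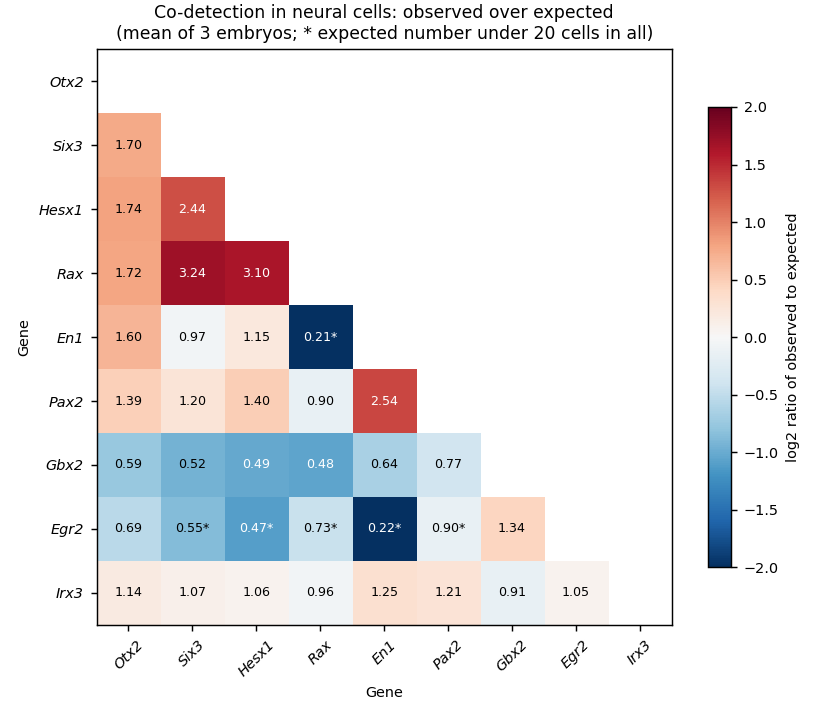
Ratio of observed to expected cells with both genes for the 36 pairs of members in neural cells, as the mean of 3 embryos; colour gives its log2 and an asterisk marks pairs with fewer than 20 cells expected in all. Six3, Hesx1 and Rax form a block of ratios from 2.44 to 3.24, En1 and Pax2 stand at 2.54, and the row of Gbx2 lies below 1 with every gene from Otx2 to Pax2.

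The next comparison asked which members were higher in neural cells than in the other lineages of the embryo. UMIs were summed over the neural cells of each embryo and over the cells of 10 marker-defined lineages pooled, and 3 sums were set against 3 in the quasi-likelihood test of edgeR, with Benjamini-Hochberg adjustment over 14656 genes and a threshold of 0.05. Of the 9 members, 7 were higher in neural cells and none was lower, where 34.2% of all genes tested were called 14.0% higher and 20.2% lower in neural cells. Of 5 pan-neural genes tested out of 6 listed, 5 were higher in neural cells, with a median of 3.70 on the log2 scale against 0.00 over all genes. Of 9 hindbrain genes 2 were higher and 2 lower, and of 8 caudal genes 1 was higher and 1 lower (2 and 3 of each list with the embryo as a block). Of 6 forebrain genes tested 3 were higher and none lower, and of 6 midbrain and isthmus genes 3 were higher and 1 lower. The lineages are summed in their natural numbers, so visceral endoderm weighs heavily in embryos 2 and 3 (1087 and 834 cells).

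Hesx1 was higher by 4.19 ± 0.395 on the log2 scale (± SE; adjusted p = 0.00055, edgeR), Six3 by 4.06 ± 0.351 (adjusted p = 0.00041) and Rax by 3.72 ± 0.721 (adjusted p = 0.0067). Pax2 was higher by 3.36 ± 0.151 (adjusted p = 6.0e-05), Otx2 by 2.80 ± 0.326 (adjusted p = 0.00113) and Irx3 by 1.88 ± 0.176 (adjusted p = 0.000542). Gbx2 had the smallest called difference, 1.32 ± 0.286 (adjusted p = 0.0105). En1 (1.44 ± 0.770, adjusted p = 0.189) and Egr2 (1.52 ± 0.530, adjusted p = 0.0602) did not pass; Egr2 passed with the embryo as a block (adjusted p = 0.0116, edgeR). Without embryo 3, Rax (adjusted p = 0.0658) and Gbx2 (adjusted p = 0.127) no longer passed in edgeR. Rax passed the filter on low counts only through neural cells, so its call could go in that direction only. With the lineages weighed equally instead of by their cells, En1 was 4.72 higher on the log2 scale and passed (adjusted p = 1.25e-06, edgeR). That fit averages log levels over lineages, and En1 stood at 0 CPM in axial mesendoderm, somitic mesoderm, endothelium and erythroid cells. The size of 4.72 therefore depends on the floor given to levels of 0. By mean level, visceral endoderm was not below neural cells (3.46 ± 1.00 against 3.02 ± 3.13 CPM).

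The lineages in which each member was found differed between members. En1 had its highest mean level outside the neural plate, in visceral endoderm, at 2.44, 3.50 and 4.44 CPM in the 3 embryos, against 0.972, 6.61 and 1.47 CPM in neural cells. It was found there in 14 of 249, 60 of 1087 and 59 of 834 cells (5.62%, 5.52% and 7.07%), and in none of the erythroid cells (0 of 545 cells, which allows a share of up to 0.550%). Visceral endoderm held even shares in all 3 embryos, while the neural share was highest in embryo 2. Other genes of the neural plate were read in the visceral endoderm cells with En1. The visceral endoderm rule also required that cells hold no Sox2 UMI, so droplets mixed with neural RNA were partly left out beforehand. Pax2 was found in 0 of 14, 1 of 60 and 1 of 59 of them, and Pax8 in none (0 of 14, 0 of 60 and 0 of 59). Sox3 was found in 1, 1 and 2 of them, and in 14 of 235, 16 of 1027 and 10 of 775 visceral endoderm cells without En1. Pou3f1 was found in 1 of 14, 8 of 60 and 0 of 59 visceral endoderm cells with En1 (7.14%, 13.3% and 0%) and in 3.83%, 2.34% and 2.71% of those without it, so it was more frequent with En1 in embryos 1 and 2 and less frequent in embryo 3.

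Six3 was found in axial mesendoderm, the midline cells with T, Foxa2 and Shh or Noto, in 45 of 73, 19 of 71 and 15 of 59 cells (61.6%, 26.8% and 25.4%). Its level there was 46.2, 19.9 and 19.6 CPM, highest in embryo 1, and overlapped the range of neural cells. Hesx1, which was found with Six3 in 657 neural cells, stood at 1.76 ± 1.50 CPM in axial mesendoderm against 34.6 ± 8.33 CPM in neural cells. Axial cells with Six3 more often held Noto, a homeobox gene of the node and notochord (30 of 45, 15 of 19 and 11 of 15 cells), than axial cells without it (10 of 28, 14 of 52 and 18 of 44). Foxj1, a regulator of motile cilia, had the same order (29 of 45, 10 of 19 and 10 of 15 against 9 of 28, 11 of 52 and 16 of 44). So did Gsc, a marker of the prechordal plate, over few cells (5 of 45, 2 of 19 and 1 of 15 against 2 of 28, 0 of 52 and 2 of 44). Shh, Otx2, Hesx1 and Pou3f1 had no single order across the embryos. Noto was one of the genes that define the class, and these cells were compared as a description without a test.

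Otx2 was found in definitive endoderm at 67.4 ± 23.4 CPM, from 42.5 to 89.0 CPM, a range that overlapped neural cells (88.9 ± 14.4 CPM). Gbx2 was highest in presomitic mesoderm (69.3 ± 6.52 CPM) and in NMP cells, neuromesodermal progenitors with both Sox2 and T (62.0 ± 10.4 CPM). Its level in neural cells, 42.3 ± 2.75 CPM, did not overlap either range. Irx3 was broad, with 115 ± 14.2 CPM in neural cells and 79.2 ± 3.26 CPM in somitic mesoderm. In surface ectoderm it stood between 75.9 and 97.5 CPM, just below the lowest neural level of 98.3 CPM. In thinned cells these 2 ranges overlapped, with 115, 95.2 and 124 CPM in neural cells and 106, 106 and 110 CPM in surface ectoderm. The surface ectoderm rule also required that cells hold no Sox2 UMI. Rax was listed at 0 UMIs in visceral endoderm, surface ectoderm and allantois of all 3 embryos. The order of Egr2 levels, led by definitive endoderm at 1.38 ± 1.84 CPM, had overlapping neighbours throughout.

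**Figure D3:**
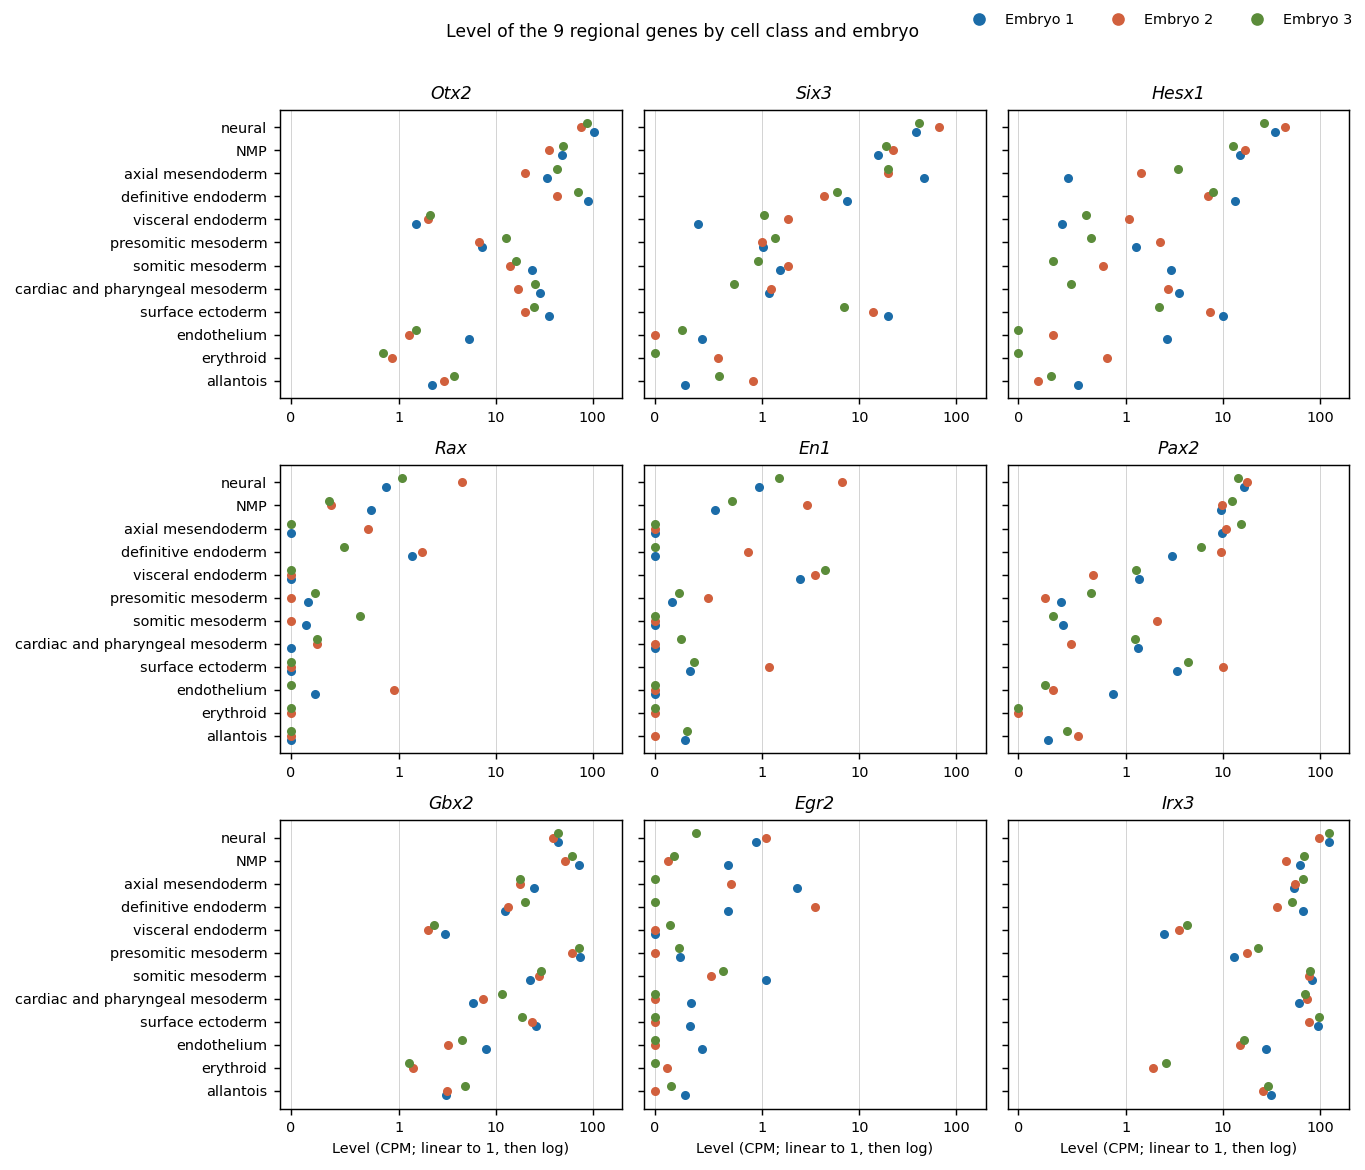
Level of each member in CPM (x axis, linear up to 1 and logarithmic above) in 12 cell classes (y axis), with 1 point per embryo. Six3 and Hesx1 peak in neural cells, Six3 also in axial mesendoderm (19.6 to 46.2 CPM), En1 in visceral endoderm (2.44 to 4.44 CPM) lies within the neural range, and Gbx2 is highest in presomitic mesoderm (61.8 to 73.7 CPM).

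Neural cells were then compared with NMP cells, which differ from them by the rule only in holding T. Anterior members were present in NMP cells too, with Otx2 in 35.3%, 27.0% and 41.2% and Six3 in 15.7%, 14.0% and 18.5% of them, so the class was not only caudal. In edgeR, 4 of the 9 members were higher in neural cells, where 1.35% of all 13152 genes were called 0.342% higher and 1.01% lower in neural cells. They were Six3 (1.37 ± 0.233 on the log2 scale, adjusted p = 0.0284), Hesx1 (1.23 ± 0.184, adjusted p = 0.0175), Otx2 (0.99 ± 0.145, adjusted p = 0.0158) and Irx3 (0.98 ± 0.153, adjusted p = 0.0204).

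Gbx2 was the one member with a negative difference, -0.55 ± 0.116, and did not pass (adjusted p = 0.0681, edgeR). Pax2 (0.62 ± 0.138, adjusted p = 0.0879), Rax (1.96 ± 0.766, adjusted p = 0.457), En1 (1.26 ± 0.872, adjusted p = 0.907) and Egr2 (1.05 ± 0.608, adjusted p = 0.815) did not pass either. Both sums of an embryo come from the same animal, and with the embryo as a block 1475 genes were called in place of 178, and every member but Egr2 passed (Gbx2, adjusted p = 8.88e-09; Pax2, 0.000101; En1, 0.00299; Rax, 0.00523; Egr2, 0.161). Leaving out embryo 1 or embryo 3 ended all 4 calls, and leaving out embryo 2 ended that of Hesx1 (adjusted p = 0.0783). Of 8 caudal genes 4 were higher in NMP cells, with a median of -1.85 on the log2 scale, and of 9 hindbrain genes 4, with a median of -0.46; none of either list was higher in neural cells. Of 5 forebrain genes tested 1 was higher in neural cells, of 4 midbrain and isthmus genes 1 was lower, and of 5 pan-neural genes 2 were higher. With the block, 8 caudal and 6 hindbrain genes were higher in NMP cells, and in neural cells 2 forebrain, 2 midbrain and isthmus and 5 pan-neural genes were higher. NMP cells were deeper than neural cells (32660, 19761 and 24656 UMIs per cell), and with thinned cells Gbx2 was lower in neural cells by a difference that passed (-0.70, adjusted p = 0.0445, edgeR).

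The division of the plate was then read from cells that held Otx2 without Gbx2 (406, 380 and 498 cells) and cells that held Gbx2 without Otx2 (336, 321 and 332 cells). Otx2 and Gbx2 set the classes and were not tested. Cells with 1 of the 2 genes can also hold transcripts of the other that were not captured. Of the other 7 members, 5 were higher in Otx2 cells and none in Gbx2 cells, where 6.67% of the 11834 genes tested were called and 3.61% were higher in Otx2 cells. Members nearly absent from Gbx2 cells, such as Rax and Hesx1, passed the filter on low counts only through Otx2 cells. Their calls could go in that direction only.

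Hesx1 stood at 73.7, 88.2 and 50.5 CPM in Otx2 cells and at 0.316, 2.30 and 1.17 CPM in Gbx2 cells, which did not overlap. The difference was 6.00 ± 0.375 on the log2 scale (adjusted p = 1.6e-05, edgeR). Six3 stood at 82.7, 141 and 80.1 CPM against 1.26, 2.50 and 2.67 CPM (5.63 ± 0.328, adjusted p = 1.23e-05, edgeR). These 2 genes were found in 54.0 ± 7.14% and 52.5 ± 6.91% of Otx2 cells, and in 1.62 ± 0.644% and 3.43 ± 0.871% of Gbx2 cells. Rax had 111 UMIs in Otx2 cells and 1 UMI in Gbx2 cells of all embryos together, a ratio of 78.0 with a counting interval from 13.7 to 3110 (adjusted p = 0.0159, edgeR). Without embryo 3 the Rax call was lost (adjusted p = 0.0881).

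Pax2 was 1.87 ± 0.253 higher on the log2 scale (24.7, 26.4 and 19.7 CPM against 4.11, 9.79 and 6.17 CPM; adjusted p = 0.00149, edgeR) and Irx3 was 0.75 ± 0.107 higher (156, 122 and 152 CPM against 85.6, 75.9 and 91.8 CPM; adjusted p = 0.00198, edgeR). Both were found on either side, with Pax2 in 10.2 ± 0.690% and Irx3 in 56.7 ± 8.63% of Gbx2 cells. En1 had 133 UMIs in Otx2 cells and 12 in Gbx2 cells, of which embryo 2 held 85 and 10. Its difference of 3.02 ± 1.02 did not pass (adjusted p = 0.137, edgeR) and passed with the embryo as a block (adjusted p = 0.000222). Egr2 had 13 UMIs in Otx2 cells and 21 in Gbx2 cells and did not reach the filter on low counts.

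Genes of the same regions, from lists of known regional genes, were read across the split. Of 5 forebrain genes tested out of 9 listed, 2 were higher in Otx2 cells and none was lower. The list median was 1.78 on the log2 scale against -0.01 over all genes. The 2 were Lhx5 (3.46 ± 0.350, adjusted p = 0.00027, edgeR) and Fezf1, named here after its values were seen, which had 88 UMIs in Otx2 cells and none in Gbx2 cells and was at least 20.6-fold higher against a floor of 3 UMIs over the class (adjusted p = 0.00318, edgeR). With Fezf1 at this bound it still had the largest value of the list, so the list median did not move. Of 3 midbrain and isthmus genes tested out of 8 listed, 2 were higher (Lmx1b, 2.10 ± 0.233, adjusted p = 0.000471, and Dmbx1, 4.53 ± 0.525, adjusted p = 0.000606, in edgeR), while Fgf8 had -0.71 ± 0.198 (adjusted p = 0.0673). Dmbx1 had 4 UMIs in Gbx2 cells. Both Dmbx1 and Fezf1 passed the filter on low counts only through Otx2 cells, so their calls could go in that direction only.

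Hindbrain genes moved the other way. Of 9 hindbrain genes, 8 were lower in Otx2 cells and none was higher, where 3.06% of all genes were higher in Gbx2 cells; the list median was -2.01. Hoxb1, a gene of hindbrain segments, was lower by 2.76 ± 0.189 on the log2 scale (9.55, 9.92 and 16.0 CPM against 89.4, 81.6 and 67.2 CPM; adjusted p = 2.43e-05, edgeR). The guidance receptor gene Epha4 (-1.14 ± 0.120, adjusted p = 0.000331) was lower as well, and the gene that did not pass was Fgf3 (-0.42 ± 0.299, adjusted p = 0.599), named here after its values were seen. Of 7 caudal genes tested out of 8, 5 were lower in Otx2 cells, with a median of -2.62. Cdx1 (-4.09 ± 0.309, adjusted p = 5.11e-05), Nkx1-2 (-3.91 ± 0.220, adjusted p = 1.06e-05) and Cdx2 (-3.11 ± 0.172, adjusted p = 1.06e-05) led these, so Gbx2 cells held more caudal transcripts. Each of these genes was also lower in neural cells than in NMP cells (-1.40 for Cdx1, -1.46 for Nkx1-2 and -1.40 for Cdx2). Caudal plate cells and NMP cells whose T was not captured cannot be told apart here. Of the pan-neural genes, Pou3f1 was higher in Otx2 cells (1.07 ± 0.128, adjusted p = 0.000693) and Sox3 was higher in Gbx2 cells (-1.60 ± 0.187, adjusted p = 0.00063), and Zic2 and Sox1 did not pass. With the embryo as a block, all 9 hindbrain genes and 6 of the 7 caudal genes were lower in Otx2 cells, and 4 of the 5 forebrain genes were higher. The block also called all 3 midbrain and isthmus genes (2 higher and 1 lower) and all 5 pan-neural genes (2 higher and 3 lower), so the calls of Fgf3, Fgf8, Zic2 and Sox1 depend on it. The lists were described by counts only.

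**Figure D4:**
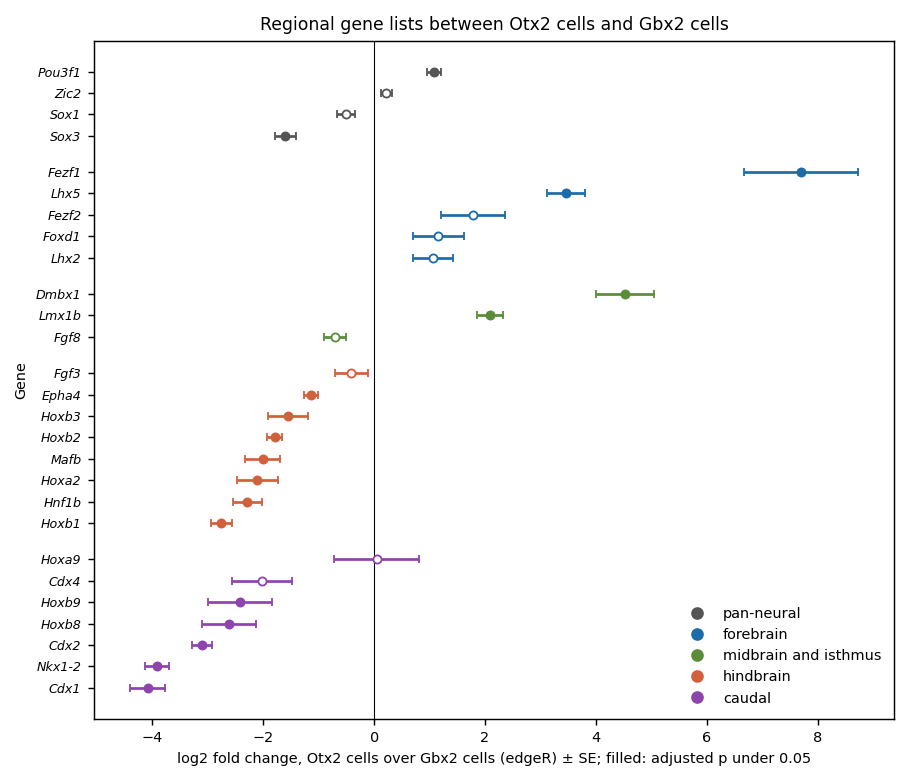
Log2 fold change of Otx2 cells over Gbx2 cells (x axis, ± SE, edgeR) for genes of 5 regional lists (y axis); filled points passed an adjusted p of 0.05. Forebrain genes lie to the right, hindbrain and caudal genes mostly to the left, with Cdx1 at -4.09 and Lhx5 at 3.46.

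Within Otx2 cells, those with Six3 (277, 269 and 299) were compared with those without it (325, 209 and 371). The 2 classes had similar median depth, 28658, 19098 and 20369 against 28560, 18070 and 18861 UMIs per cell. Of the other 7 members, 2 were higher with Six3 and none was lower, where 0.365% of the 11783 genes tested were called 0.153% higher and 0.212% lower with Six3. Hesx1 stood at 97.9, 116 and 69.2 CPM with Six3 and at 18.5, 20.1 and 18.3 CPM without it (2.33 ± 0.168 on the log2 scale, adjusted p = 0.000478, edgeR). Rax had 136 UMIs with Six3 and 2 without it, a ratio of 69.7 with a counting interval from 18.9 to 581 (adjusted p = 0.0307, edgeR). Here too Rax passed the filter on low counts only through the class where it was high, so its call could go in that direction only. Leaving out any 1 embryo ended the Rax call (adjusted p from 0.0607 to 0.287), and Hesx1 kept it in each case.

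En1, Pax2, Gbx2 and Irx3 had negative differences that did not pass. En1 stood at 1.38, 2.65 and 0.950 CPM with Six3 and at 1.76, 19.4 and 3.45 CPM without it (-2.11 ± 0.840, adjusted p = 0.706, edgeR). Embryo 2 held most of this difference, with 16 and 82 UMIs. Pax2 had -0.70 ± 0.197 (adjusted p = 0.314), Gbx2 -0.49 ± 0.181 (adjusted p = 0.637) and Irx3 -0.52 ± 0.122 (adjusted p = 0.171), and Egr2 was too low to test. All 4 passed with the embryo as a block (En1, adjusted p = 0.000105; Pax2, 0.000278; Gbx2, 0.0235; Irx3, 2.86e-06), in a fit that called 548 genes in place of 43.

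Of the 5 forebrain genes tested, Lhx5 was higher with Six3 (1.41 ± 0.221, adjusted p = 0.0307, edgeR) and Foxd1 was lower (-2.08 ± 0.285, adjusted p = 0.0149). Lhx2 and Fezf2 had 1.07 ± 0.333 and 2.25 ± 0.487 and did not pass in edgeR (adjusted p = 0.421 and 0.129). DESeq2 called 4 of the 5 forebrain genes, and all 5 passed with the embryo as a block, 4 higher and 1 lower. The forebrain list was thus not uniform within Otx2 cells. Pou3f1 was higher with Six3 (0.73 ± 0.114, adjusted p = 0.0307, edgeR), the one call among 5 pan-neural genes, of which 2 were higher and 2 lower with the block. None of 9 hindbrain genes was called in edgeR (1 at an unadjusted p under 0.05, none by DESeq2 and 2 with the block), and none of 7 caudal genes (2 at an unadjusted p under 0.05, none by DESeq2 and 3 with the block). Of 3 midbrain and isthmus genes tested, none was called in edgeR or DESeq2. With an unadjusted p under 0.05 in edgeR there was 1, and with the block 1 was lower.

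**Figure D5:**
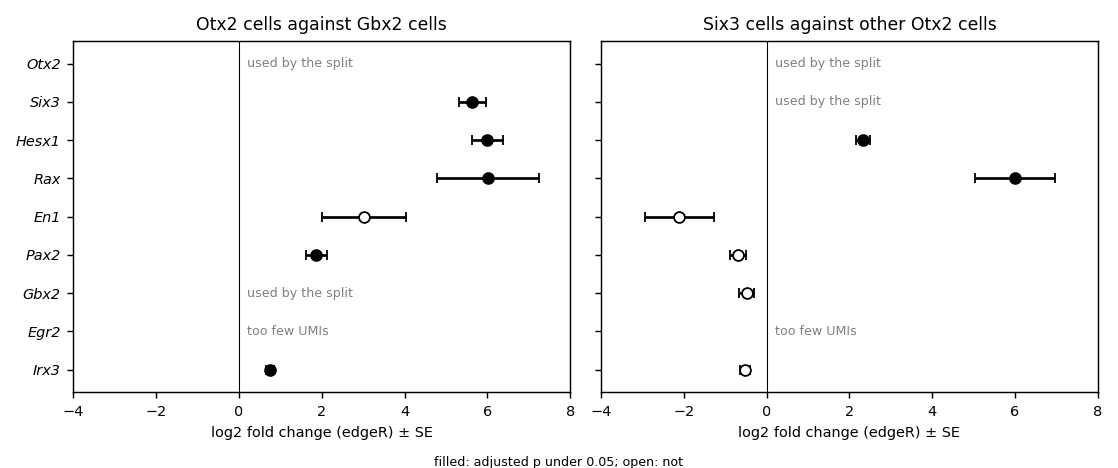
Log2 fold change of the members (x axis, ± SE, edgeR) in Otx2 cells against Gbx2 cells (left) and in Six3 cells against other Otx2 cells (right); filled points passed an adjusted p of 0.05, open points did not, and members used by a split or too low have no point. Hesx1 passes in both (6.00 and 2.33) and Pax2 changes side, from 1.87 to an uncalled -0.70.

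Genes most like each member were taken as those with the highest lowest value, over the 3 embryos, of the log2 ratio of CPM + 10 in neural cells with the member against neural cells without it. The cells with and without a member were not matched for depth, and these values were not tested. Six3 and Hesx1 were each the other's nearest gene, with lowest ratios of 1.97 for Hesx1 in Six3 cells and 2.19 for Six3 in Hesx1 cells. Otx2, Shisa2, which encodes an inhibitor of Wnt and Fgf signalling, and Lmo1 were among the first 5 for both. Otx2 was led by Six3 (2.54), Hesx1 (2.12), Shisa2 (1.72), Lmo1 (1.50) and Cyp26a1, an enzyme that clears retinoic acid (1.09). Rax was led by Six3 (1.95), Hesx1 (1.86) and the forkhead gene Foxd4 (1.52).

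Gbx2 was led by the caudal gene Cdx1 (1.64), and the caudal gene Nkx1-2 (1.49) was among its first 5. En1 and Pax2 had lower values and shared Sox9, Rfx4 and Socs2, with a lowest ratio of 0.99 for Sox9 in En1 cells and 0.72 for Pcsk1n, the first gene of Pax2. Irx3 was led by its neighbour in the Iroquois family, Irx5 (1.39), followed by Sox21 (0.85) and Sox9 (0.83). Egr2, with 30, 20 and 10 cells, had no gene above 0.50 (Nxf7).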

How the data were processed

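Each of the 3 embryos gave 1 library (10x Genomics, 3' version 3 chemistry). The authors aligned the reads with Cell Ranger (version 3.1.0) to mm10 with an EGFP sequence added and deposited raw UMI counts per gene for every barcode called a cell, without normalization (6579, 8621 and 8333 barcodes). Barcodes with 1500 to 8500 genes (7500 in embryo 2) and at most 10% mitochondrial UMIs were kept, as the study did, and a minimum of 0.5% stood in for the clusters it removed, leaving 5795, 7956 and 7844 cells. Scrublet (scanpy 1.11.5) called 1 doublet per library, so the caller had not worked, and no doublets were removed in the values reported; leaving out the top 6% of scores was an alternative. Classes were set by marker UMIs, and cells that met more than 1 rule were left out (93, 132 and 119). A further 2382, 3056 and 3419 cells fell in no class and were left out too. They made up 41.1%, 38.4% and 43.6% of the cells kept by quality control. Neural cells were those with Sox2 and without T, Foxa2, Meox1 and Tbx6, and the lineages without Sox2 were definitive and visceral endoderm, axial mesendoderm, presomitic, somitic, cardiac and pharyngeal mesoderm, surface ectoderm, endothelium, erythroid cells and allantois. Apart from class markers, genes named beyond the members were the highest by level of each list and the 5 nearest to each member. Fezf1 and Fgf3 were exceptions, named after their values were seen. Foxj1 and Gsc, read in axial mesendoderm, and Pax8, read in visceral endoderm, were also named outside this rule. Some genes of the lists are counted but their values are not reported here. Members and lists were chosen with earlier results of these data known.

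UMIs were summed per embryo and class (at least 10 cells) and tested in edgeR (version 4.0.16, under R version 4.3.3; glmQLFit, glmQLFTest, TMM, filterByExpr), with Benjamini-Hochberg adjustment over all genes tested; genes used by a rule were taken out first. DESeq2 (version 1.42.0) was an alternative. Both sums of an embryo come from 1 animal, and their deviations from the class means correlated at 0.329 to 0.666 across genes, so the embryo was also fitted as a block. On simulated sums, 73.5 to 86.0% of genes changed 2-fold were recovered over the 4 comparisons, and 2.82 to 6.04% of calls were false. The simulated sums were drawn independently without an embryo effect, so these rates do not cover the correlation within embryos. Alternatives were a stricter class, thinning before classes were set, other size factors, no count filter, no mitochondrial minimum, no top doublet scores and each embryo left out. Shares have exact (Clopper-Pearson) 95% intervals, a share of 0 the limit that 3 counts allow.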

Additional observations from a re-analysis of the deposited data

How the results depend on the processing

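No member changed direction under any alternative run. With each embryo left out in turn, the number of genes called in neural cells against other lineages was 6295 without embryo 1, 2337 without embryo 2 and 891 without embryo 3 (5018 with all). It was 49, 55 and 23 against NMP cells (178 with all), 414, 406 and 333 between Otx2 and Gbx2 cells (789 with all), and 3, 2 and 3 between Six3 cells and other Otx2 cells (43 with all). Against NMP cells 304 genes were called with DESeq2, 333 with no filter on low counts, 498 with the stricter neural class and 1475 with the replicate block. Between Otx2 and Gbx2 cells the count was 219 with thinned cells and 1873 with the block. Within Otx2 cells it was 76 with DESeq2, 166 with no filter, 9 with thinned cells and 548 with the block. Against other lineages the block gave 6950 genes; with lineages weighed equally 2586 genes were higher and 1994 lower in neural cells, where 2057 were higher and 2961 lower with pooled lineages. The cause of these shifts was not tested. Of the co-detection ratios under 4 alternatives, 81 stayed within 1 SD and 63 moved; 15 values in 11 pairs crossed 1, of which those farthest from 1 at first were Six3 and Pax2 (1.20, and 0.829 in thinned cells), Rax and Gbx2 (0.484, and 1.06 in thinned cells), Gbx2 and Egr2 (1.34, and 0.441 in thinned cells), and Egr2 with Six3 and with Hesx1 (1.25 and 1.18 in the stricter class). Egr2, Rax and En1 are limited by their few UMIs.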
